A study of Mus musculus with 6 samples.

Results

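Complement is a set of plasma and membrane proteins that tags, opsonizes and lyses targets, and the genes described here are 9 of its components and receptors (C1qa, C1qb, C1qc, C3, C3ar1, C5ar1, Cfp, Cfb and Itgam), taken by their symbols in GENCODE M21 from 54532 genes measured. Transcripts were measured by RNA sequencing in immortalized mouse bone marrow-derived macrophages, a dividing macrophage line grown out of marrow. A short hairpin RNA lowered either PGAM5, a protein phosphatase of mitochondria, or DRP1 (gene Dnm1l), the GTPase that divides mitochondria, and cells of the 2 knockdowns are called PGAM5-depleted and DRP1-depleted. There were 3 PGAM5 knockdown and 3 DRP1 knockdown libraries, and all cells of both groups had received IL-4 at 10 ng/ml for 24 h. The stated interest of the series was PGAM5 in anti-inflammatory responses of macrophages. No library of cells with neither knockdown, or without IL-4, was analysed here, so each difference below lies between the 2 knockdowns and does not tell which of them moved a gene. Whether the 3 libraries of a group came from different cultures or hairpins is not in the labels, and p-values reflect the spread among these libraries alone, which may be technical.

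C1q, made of the chains A, B and C, opens the classical pathway by binding antibody or exposed membrane, and macrophages are a main source of it in tissues. C3 is the protein on which all pathways meet. Its split product C3b is amplified by the alternative pathway, in which factor B (Cfb) supplies the enzyme and properdin (Cfp) holds the enzyme complex together. The released peptides C3a and C5a act on the G protein-coupled receptors C3AR1 and C5AR1, and CR3, the pair of integrin chains ITGAM and ITGB2, takes up particles coated with the C3 fragment iC3b.

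Values are FPKM as deposited, that is, fragments relative to transcript length and to the size of the library. Depth, recovered from the FPKM and exonic lengths, was 16111280 to 21933548 reads per library. Each knockdown showed in its own gene, with Pgam5 at 4.91 ± 0.306 FPKM in PGAM5-depleted cells and 17.2 ± 0.143 in DRP1-depleted cells, and Dnm1l at 17.9 ± 0.746 FPKM in PGAM5-depleted cells and 7.57 ± 0.55 in DRP1-depleted cells (SD, n = 3 each). PGAM5 knockdown library 3 stood apart from its group (chi-square per gene of up to 6.83 with its group, against 2.47 to 2.86 for the other pairs within groups), and calls that change without it are given without it. Macrophage markers were present in both groups, except Mertk, which had a mean of 0 FPKM in PGAM5-depleted cells and 0.00785 in DRP1-depleted cells. Of the 7 tested markers of 8, the 4 genes Lyz2, Csf1r, Cd68 and Fcgr1 were lower in PGAM5-depleted cells. The other 3, Spi1, Adgre1 and Cd14, did not pass. Spi1 averaged 192.9 FPKM in PGAM5-depleted cells and 191.1 in DRP1-depleted cells, Adgre1 43.87 and 43.36, and Cd14 1648.7 and 1708.8. The Cd14 groups did not overlap, as for 43.5% of all tested genes, the nearest values being 1685.7 and 1691.9 FPKM. Cd14 passed under 2 of the 12 alternatives that covered it (lowest limma adjusted p = 0.0232), and Spi1 and Adgre1 under 0 of 13. The summed level of all 8 was 3759.1 to 3929.7 FPKM in PGAM5-depleted cells and 4809.2 to 4853.0 in DRP1-depleted cells. Much of that gap lay in Lyz2, which averaged 1271.8 FPKM in PGAM5-depleted cells and 1954.1 in DRP1-depleted cells. The part of this marker shift in the differences below was not tested, and in bulk RNA fewer cells of a type and less RNA per cell cannot be told apart. The 28 markers of neutrophils, dendritic cells, B cells, T cells, fibroblasts and hepatocytes were all below a mean of 1 FPKM, and their summed level in a library was at most 0.513 FPKM for any of these cell types.

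Of the 9 genes, 5 were expressed and 4 were at or near 0. In order of level per length these were Cfp, C3ar1, C5ar1, C3 and Itgam, with means over the 6 libraries of 128, 79.2, 28.7, 17.7 and 4.13 FPKM. No library of one gene overlapped any library of the next in that order. Among the 10634 genes with a mean of at least 1 FPKM, which were tested, Cfp ranked 395 by level, C3ar1 669, C5ar1 2071, C3 3272 and Itgam 7678. The level and rank of Itgam may be understated, since another annotated gene shares most of its exonic bases.

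**Figure D1:**
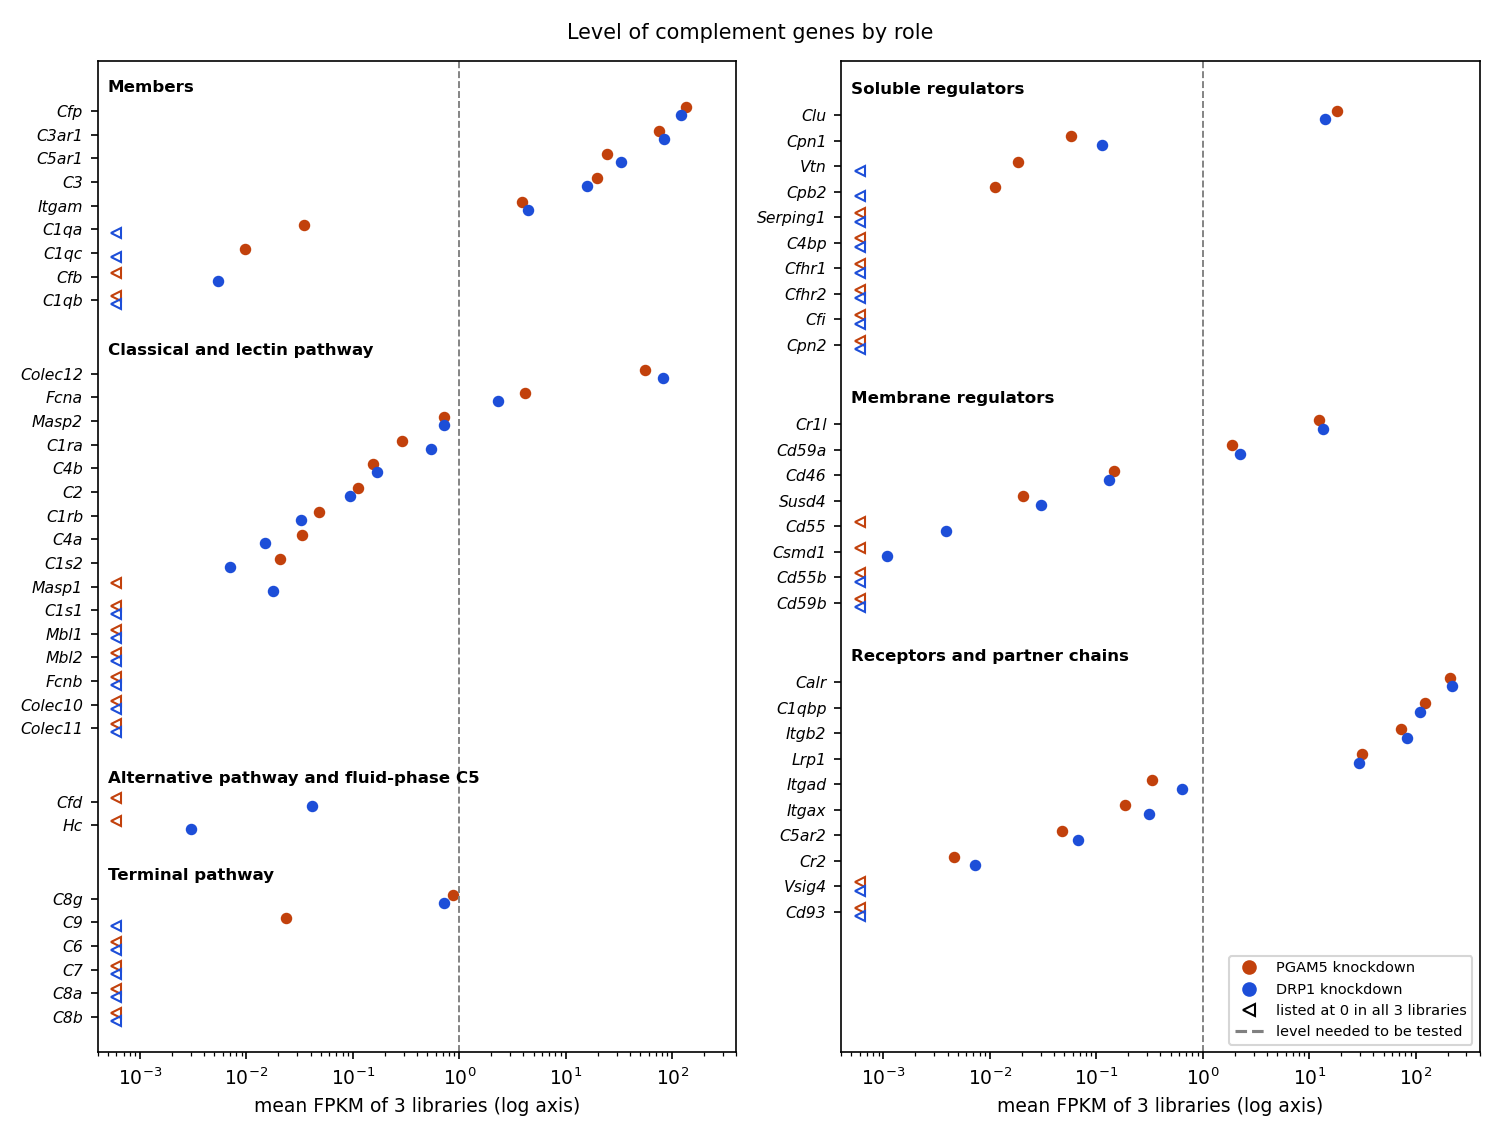
Mean FPKM of the 3 PGAM5 knockdown libraries (orange) and the 3 DRP1 knockdown libraries (blue) for the 9 complement genes described here and for other complement genes, by role, on a log axis. Open triangles are genes listed at 0 in all 3 libraries of a group, and the dashed line marks the mean of 1 FPKM needed for testing. To its right lie 14 genes.

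C3 transcripts were higher in PGAM5-depleted cells, while those of the receptors for its split product and for C5a were lower. By limma on log2(FPKM + 1), adjusted over all 10634 genes, C3 was higher and C3ar1 and C5ar1 were lower in PGAM5-depleted cells. Cfp and Itgam did not pass an adjusted p of 0.05. That is 1 higher and 2 lower of the 5 tested, beside 25.4% of all tested genes called, 13.8% higher and 11.7% lower. With 5 genes these shares do not set the complement genes apart from the rest. Their median log2 difference was -0.14, against 0.009 over all tested genes.

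**Figure D2:**
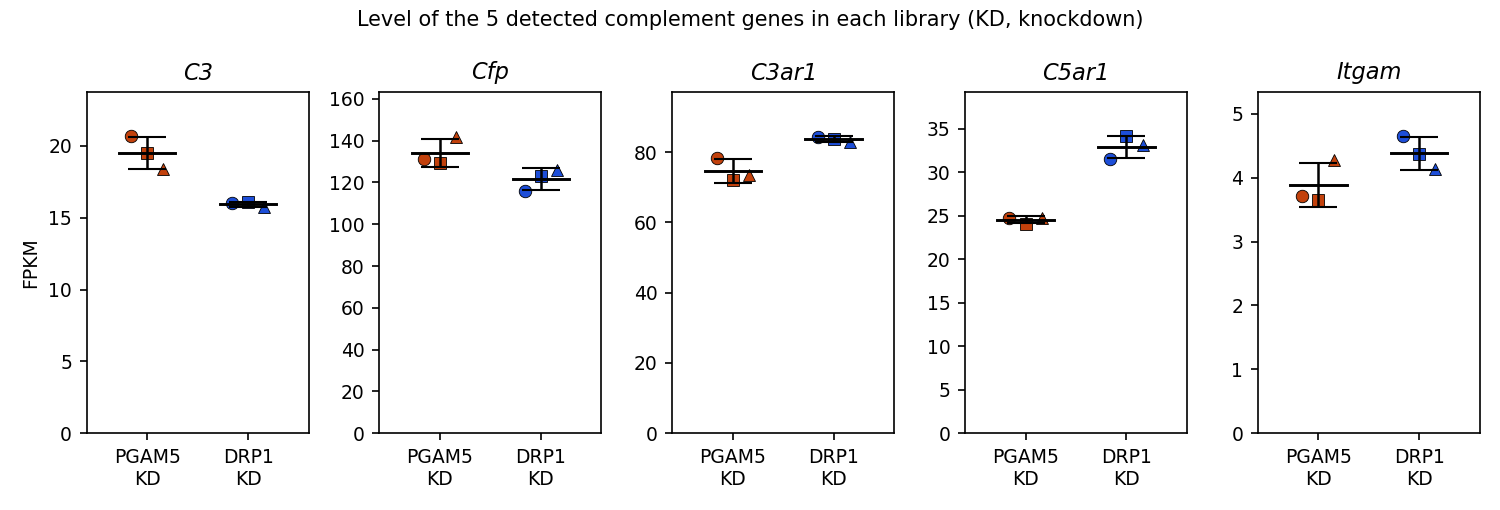
FPKM of the 5 expressed complement genes, 1 panel each with an axis from 0. Points are libraries (circle, square and triangle for libraries 1, 2 and 3), with PGAM5 knockdown (KD) in orange and DRP1 knockdown in blue, and lines are means ± SD of 3. The groups overlap for Itgam and are separate for the other 4, narrowly so for Cfp, whose lowest PGAM5 knockdown value is 129.4 and highest DRP1 knockdown value 125.9 FPKM.

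C3 (ENSMUSG00000024164, chromosome 17, 57203970 to 57228136, minus strand, mm10) stood at 20.7, 19.5 and 18.4 FPKM in PGAM5 knockdown libraries 1, 2 and 3, and at 16.01, 16.08 and 15.72 in DRP1 knockdown libraries 1, 2 and 3. All PGAM5 knockdown values lay above all DRP1 knockdown values, and DRP1-depleted libraries were close to one another. C3 averaged 19.5 ± 1.14 FPKM in PGAM5-depleted cells and 15.9 ± 0.195 in DRP1-depleted cells, a ratio of 1.22 (log2 difference 0.28, SE 0.046, 95% interval 0.17 to 0.38, limma adjusted p = 0.00514). The counts behind them were 5257 reads over PGAM5-depleted libraries and 4563 over DRP1-depleted libraries.

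Cfp (ENSMUSG00000001128, chromosome X, 20925454 to 20931555, minus strand), the gene of properdin, was the most abundant of the 9. It measured 131, 129.4 and 142 FPKM in PGAM5-depleted libraries and 115.8, 123 and 125.9 in DRP1-depleted libraries. The groups did not overlap, as was so for 43.5% of all tested genes, 23.0% with PGAM5-depleted cells higher and 20.5% with them lower; C3 was the other of the 5 genes in the first group, and C3ar1 and C5ar1 were in the second. The log2 difference of 0.14 (SE 0.047, 95% interval 0.03 to 0.25) did not pass, at a limma adjusted p of 0.0671. It passed with voom on recovered reads (adjusted p = 0.0266) and its adjusted p ran from 0.0266 to 0.195 over 13 alternatives.

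Cfb (ENSMUSG00000090231, chromosome 17, 34856374 to 34862518, minus strand), whose product is the enzyme that properdin holds in place, had 0 reads in PGAM5-depleted cells and 1 read in DRP1-depleted cells. This is at or under the limit of 3 reads, which was 0.0484 to 0.0659 FPKM per library over all 2825 exonic bases of Cfb. The annotation limits that reading. Exons of Gm20547, a gene annotated on the same strand across Cfb and its neighbour C2, cover 79.5% of the exonic bases of Cfb, and Gm20547 was itself listed at 0. Reads that fall on 2 genes can be left out of both in counting, and which setting was used is unknown, so the low value may rest only on the 579 bases that Cfb does not share. Over those bases alone the 1 read, in DRP1 knockdown library 3, would be 0.0787 FPKM, and the limit of 3 reads would be higher than given above.

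C1qa, C1qb and C1qc (chromosome 4, 136880129 to 136898803 from the first base of C1qb to the last of C1qa, all minus strand) lie side by side and were near the detection limit in all libraries. C1qa (ENSMUSG00000036887), the A chain, had 2 reads in PGAM5 knockdown library 3 (0.105 FPKM) and 0 in the other 5 libraries. C1qc (ENSMUSG00000036896), the C chain, had 1 read in PGAM5 knockdown library 1 (0.0292 FPKM) and 0 elsewhere. C1qb (ENSMUSG00000036905), the B chain, had 0 in all 6 libraries, which allows up to 0.126 to 0.171 FPKM per library. No other gene shares exons with the 3, and none matched their longest transcripts at 97% identity over 100 bases or more. None of 12 housekeeping genes looked up was at 0 in any library (lowest 2.7 FPKM), which bears on the libraries and not on C1q. The sum of the 3 chains was 3 reads over PGAM5-depleted libraries and 0 over DRP1-depleted libraries (exact permutation p = 0.4, two-sided), and no fold is given at this depth.

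C3ar1 (ENSMUSG00000040552, chromosome 6, 122847138 to 122856161, minus strand), the C3a receptor, measured 78.4, 72.0 and 73.6 FPKM in PGAM5-depleted libraries and 84.5, 83.7 and 82.8 in DRP1-depleted libraries. Every PGAM5 knockdown library lay below every DRP1 knockdown library, the nearest pair being 78.4 and 82.8. C3ar1 averaged 74.7 ± 3.33 FPKM in PGAM5-depleted cells and 83.7 ± 0.81 in DRP1-depleted cells, and was thus 1.12-fold lower (log2 difference -0.16, SE 0.037, 95% interval -0.25 to -0.08, limma adjusted p = 0.0165). The call was lost without PGAM5 knockdown library 2 (adjusted p = 0.054) or DRP1 knockdown library 1 (0.0627), 2 (0.0592) or 3 (0.0502), within a range of 0.0032 to 0.0627 over 13 alternatives.

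C5ar1 (ENSMUSG00000049130, chromosome 7, 16246743 to 16259540, minus strand), the C5a receptor, had the largest difference of the 5 tested genes. It measured 24.7, 24.1 and 24.8 FPKM in PGAM5-depleted libraries and 31.5, 34.1 and 33.1 in DRP1-depleted libraries. PGAM5-depleted libraries lay close together and all below DRP1-depleted libraries. C5ar1 averaged 24.5 ± 0.388 FPKM in PGAM5-depleted cells and 32.9 ± 1.3 in DRP1-depleted cells, and was thus 1.34-fold lower (log2 difference -0.41, SE 0.037, 95% interval -0.50 to -0.32, limma adjusted p = 3.82e-04). C5ar2, the second C5a receptor, lies next to it and was at 0.048 ± 0.0306 FPKM in PGAM5-depleted cells and 0.0674 ± 0.0434 in DRP1-depleted cells, too low to be tested.

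Itgam (ENSMUSG00000030786, chromosome 7, 128062640 to 128118491, plus strand), the CD11b chain of CR3, measured 3.72, 3.65 and 4.28 FPKM in PGAM5-depleted libraries and 4.65, 4.37 and 4.13 in DRP1-depleted libraries. The groups overlapped, with PGAM5 knockdown library 3 above DRP1 knockdown library 3. The log2 difference of -0.14 (SE 0.069, 95% interval -0.30 to 0.02) did not pass, at a limma adjusted p of 0.178. Without PGAM5 knockdown library 3 it was -0.20 (adjusted p = 0.0565), the lowest adjusted p of 13 alternatives, which reached 0.398. The level itself may be understated, since the limit given for Cfb holds here too. Exons of Gm49368, annotated on the same strand and listed at 0 in all libraries, cover 68.7% of the exonic bases of Itgam. Itgam itself had 1025 reads over PGAM5-depleted libraries and 1219 over DRP1-depleted libraries, so reads on shared bases were not counted for both genes. If reads came from the 1574 unshared bases alone, the level per length would be 12.39 ± 1.11 FPKM in PGAM5-depleted cells and 13.98 ± 0.825 in DRP1-depleted cells.

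**Figure D3:**
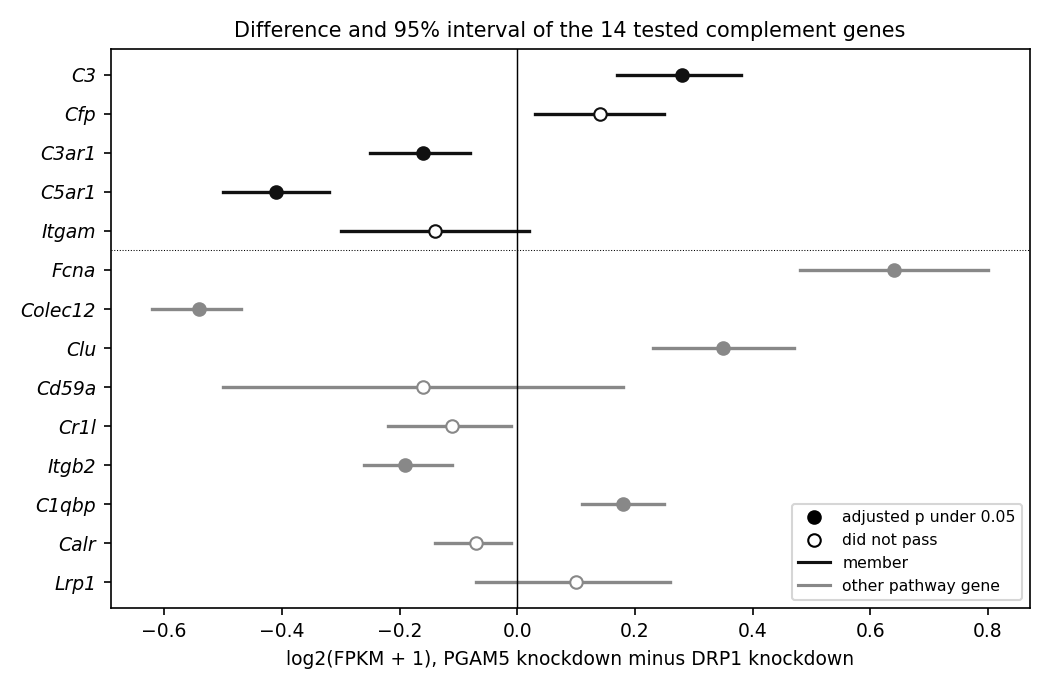
Difference in log2(FPKM + 1), PGAM5 knockdown minus DRP1 knockdown, with its 95% interval, for the 5 tested complement genes described here (black, above the dotted line) and 9 other tested complement genes (grey). Filled points passed an adjusted p of 0.05. The differences run from -0.54 for Colec12 to 0.64 for Fcna.

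Ratios within a library do not depend on the scaling between libraries, and 3 were compared. C3ar1 over C5ar1 was 3.17, 2.99 and 2.97 in PGAM5-depleted libraries and 2.68, 2.45 and 2.50 in DRP1-depleted libraries, so the receptor for C5a was the lower of the pair by more in PGAM5-depleted cells. C3 over C3ar1 was 0.264, 0.271 and 0.250 in PGAM5-depleted cells and 0.190, 0.192 and 0.190 in DRP1-depleted cells. For both ratios the groups did not overlap, and the exact two-sided permutation p was 0.1, the smallest that 3 against 3 allows, or 0.15 adjusted over the 3 ratios by Benjamini-Hochberg. The ratios were chosen after values were seen. C3 was already higher and C3ar1 lower without overlap, so the separation of C3 over C3ar1 was fixed and adds nothing to those differences. Itgb2 over Itgam averaged 18.8 ± 2.14 in PGAM5-depleted cells and 19.0 ± 1.21 in DRP1-depleted cells with overlapping groups (exact permutation p = 0.9), and its size is raised by the reads that Itgam may lack.

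The promoters of the 3 genes that passed, and of C1qb as the gene at 0 in all libraries, are shown because they are the stretches in which the expressed and the unexpressed genes can be compared. Each is the 250 bases before the RefSeq start on GRCm38.p6, written on the gene's strand. Capitals mark matches on either strand to 6 motifs: a TATA box (TATAAA), PU.1 (GAGGAA), C/EBP (TTGCNNAA), NF-kB (GGG and CC with any 5 bases between), GAS (TTC and GAA with any 3 bases between) and STAT6 (TTC and GAA with any 4 bases between). Of the 9 genes, 7 had an entry.
C3 promoter, chr17:57228137-57228386, minus strand: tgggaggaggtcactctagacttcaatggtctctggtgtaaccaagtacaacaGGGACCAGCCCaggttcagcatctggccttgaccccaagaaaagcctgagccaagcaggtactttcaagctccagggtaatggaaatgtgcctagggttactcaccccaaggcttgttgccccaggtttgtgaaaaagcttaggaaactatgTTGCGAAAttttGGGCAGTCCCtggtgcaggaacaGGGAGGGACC
C3ar1 promoter, chr6:122856158-122856407, minus strand: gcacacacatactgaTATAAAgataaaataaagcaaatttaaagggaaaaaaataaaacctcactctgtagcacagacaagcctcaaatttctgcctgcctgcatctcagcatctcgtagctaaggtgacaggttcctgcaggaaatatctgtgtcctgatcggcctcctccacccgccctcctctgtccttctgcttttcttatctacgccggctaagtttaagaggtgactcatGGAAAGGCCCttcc
C5ar1 promoter, chr7:16259339-16259588, minus strand: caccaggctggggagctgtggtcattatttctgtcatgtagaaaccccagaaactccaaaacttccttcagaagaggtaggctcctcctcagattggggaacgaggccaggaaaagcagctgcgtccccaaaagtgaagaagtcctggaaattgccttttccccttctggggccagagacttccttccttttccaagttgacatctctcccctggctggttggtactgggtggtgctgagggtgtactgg
C1qb promoter, chr4:136886201-136886450, minus strand: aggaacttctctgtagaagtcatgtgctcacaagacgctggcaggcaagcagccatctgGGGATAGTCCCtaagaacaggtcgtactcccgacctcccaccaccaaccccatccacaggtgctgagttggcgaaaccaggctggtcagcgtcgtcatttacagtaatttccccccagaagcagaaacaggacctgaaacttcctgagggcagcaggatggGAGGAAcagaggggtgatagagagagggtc
The C3 promoter held a C/EBP match, TTGCGAAA, that began 45 bases before the start, a motif held by 9.6% of all 32851 promoters. It also held NF-kB matches at 197, 33 and 10 bases before the start, the first overlapping its own reverse match at 196. The NF-kB pattern is loose, at 45.8% of all promoters. C3ar1 held an NF-kB match at 14 bases and a TATA box letter match at 235 bases before the start. C5ar1 held none of the 6, and GENCODE M21 places a short first exon of C5ar1 inside that window. C1qb held a PU.1 match at 30 bases before the start and NF-kB matches at 191 and 190 that overlap each other, and C1qc held a PU.1 match at 193 and overlapping NF-kB matches at 41 and 40, these last inside the span GENCODE M21 gives the gene. Cfp held an NF-kB match at 10, and Itgam held PU.1 matches at 84 and 15 and overlapping NF-kB matches at 140 and 139. PU.1 matches stood in 23.3% of all promoters, TATA box matches in 12.4%, GAS matches in 7.0% and STAT6 matches in 5.9%, and none of the 7 promoters held GAS or STAT6. These are letter matches only and say nothing of binding.

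Most of the wider complement system was below testing. Of 53 other complement genes, 20 were at 0 in all 6 libraries, 24 were above 0 but under a mean of 1 FPKM, and 9 were tested. Of these 9, 3 were higher in PGAM5-depleted cells, 2 lower and 4 did not pass, with a median log2 difference of -0.08, beside the 25.4% called and the median of 0.009 over all tested genes.

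Of the 16 genes of the classical and lectin pathways, which cover recognition molecules, proteases and their substrates, 2 were tested and both passed. Fcna, the gene of ficolin A, a lectin that binds sugars on microbes, measured 4.18 ± 0.262 FPKM in PGAM5-depleted cells and 2.33 ± 0.195 in DRP1-depleted cells (1.79-fold higher, log2 difference 0.64, limma adjusted p = 7.46e-04). Colec12, a membrane collectin and scavenger receptor, measured 55.5 ± 0.532 FPKM in PGAM5-depleted cells and 81.4 ± 2.52 in DRP1-depleted cells (1.47-fold lower, log2 difference -0.54, limma adjusted p = 5.08e-05). The proteases that act after recognition were below testing. Masp2 was at 0.719 ± 0.213 FPKM in PGAM5-depleted cells and 0.724 ± 0.278 in DRP1-depleted cells, with 54.9% of its exonic bases shared with Tardbp. C1ra was at 0.288 ± 0.0782 FPKM in PGAM5-depleted cells and 0.541 ± 0.0585 in DRP1-depleted cells, uncertain because 81.5% of its longest transcript matches C1rb. C4b, the substrate that the classical pathway splits, was at 0.154 ± 0.0479 FPKM in PGAM5-depleted cells and 0.167 ± 0.09 in DRP1-depleted cells.

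The protease that starts the alternative pathway, factor D (Cfd), had 0 reads in PGAM5-depleted cells and 2 in DRP1-depleted cells, and Hc, the gene of C5 in mouse, had 0 in PGAM5-depleted cells and 1 in DRP1-depleted cells. Properdin and C3 were thus expressed where factor B, factor D and C5 were at or under 3 reads per group, with the limit for Cfb given above. None of the 6 terminal genes, whose products form the membrane pore, was tested. C8g, the gamma chain of C8, was the highest at 0.873 ± 0.331 FPKM in PGAM5-depleted cells and 0.715 ± 0.0791 in DRP1-depleted cells, and C9 had 3 reads in PGAM5-depleted cells and 0 in DRP1-depleted cells.

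Of the 11 soluble regulators, Clu was the 1 tested. Clu, the gene of clusterin, which keeps the terminal complex out of membranes, was higher in PGAM5-depleted cells. It measured 18.1 ± 1.2 FPKM there and 13.96 ± 0.368 in DRP1-depleted cells (1.30-fold, log2 difference 0.35, limma adjusted p = 0.00315). Cpn1 and Vtn had means of at most 0.112 FPKM in either group. Of the 8 membrane regulators, which protect a cell from its own complement, 2 were tested and neither passed, with an unadjusted limma p under 0.05 for Cr1l alone. Cr1l, the gene of the rodent regulator Crry, measured 12.3 ± 0.634 FPKM in PGAM5-depleted cells and 13.4 ± 0.233 in DRP1-depleted cells (log2 difference -0.11, 95% interval -0.22 to -0.01, limma adjusted p = 0.106), and passed without PGAM5 knockdown library 3 (adjusted p = 0.0267) and with voom (0.0464), within a range of 0.0267 to 0.253 over 13 alternatives. Cd59a was at 1.88 ± 0.403 FPKM in PGAM5-depleted cells and 2.23 ± 0.533 in DRP1-depleted cells and did not pass (limma adjusted p = 0.453). Cd46 was at 0.148 ± 0.0273 FPKM in PGAM5-depleted cells and 0.132 ± 0.0437 in DRP1-depleted cells.

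Of the 10 other receptors and partner chains, 4 were tested, of which 1 was higher and 1 lower in PGAM5-depleted cells. Itgb2, the CD18 chain that pairs with ITGAM, measured 74.81, 72.87 and 69.99 FPKM in PGAM5-depleted libraries and 82.1, 83.5 and 82.9 in DRP1-depleted libraries. The groups were separate and Itgb2 was 1.14-fold lower in PGAM5-depleted cells (log2 difference -0.19, limma adjusted p = 0.0054). Among the alpha chains that pair with it, Itgax of CR4 and Itgad were below testing. Itgax was at 0.185 ± 0.0707 FPKM in PGAM5-depleted cells and 0.309 ± 0.0108 in DRP1-depleted cells. Itgad was at 0.334 ± 0.0693 FPKM in PGAM5-depleted cells and 0.634 ± 0.197 in DRP1-depleted cells. The Itgad values are uncertain because 19.7% of its exonic bases are shared with other genes, Cox6a2 among them. C1qbp, whose product resides mainly in mitochondria and can bind the heads of C1q, was higher in PGAM5-depleted cells. It measured 124 ± 3.04 FPKM there and 109 ± 1.0 in DRP1-depleted cells (log2 difference 0.18, limma adjusted p = 0.00414). Calr, the gene of the chaperone calreticulin, which can hold C1q at the cell surface, measured 208 ± 4.73 FPKM in PGAM5-depleted cells and 219 ± 1.53 in DRP1-depleted cells and did not pass (log2 difference -0.07, limma adjusted p = 0.0867). It passed without PGAM5 knockdown library 3 (adjusted p = 0.0499) and with both other scalings, quantile (0.0149) and median-of-ratios (0.0451), and its adjusted p reached 0.237 over 13 alternatives. Lrp1, a large endocytic receptor, measured 31.2 ± 3.29 FPKM in PGAM5-depleted cells and 29.1 ± 0.815 in DRP1-depleted cells and did not pass (limma adjusted p = 0.38), while it passed without PGAM5 knockdown library 3 (log2 difference 0.18, adjusted p = 0.0158), the lowest of its alternatives, which reached 0.737.

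**Figure D4:**
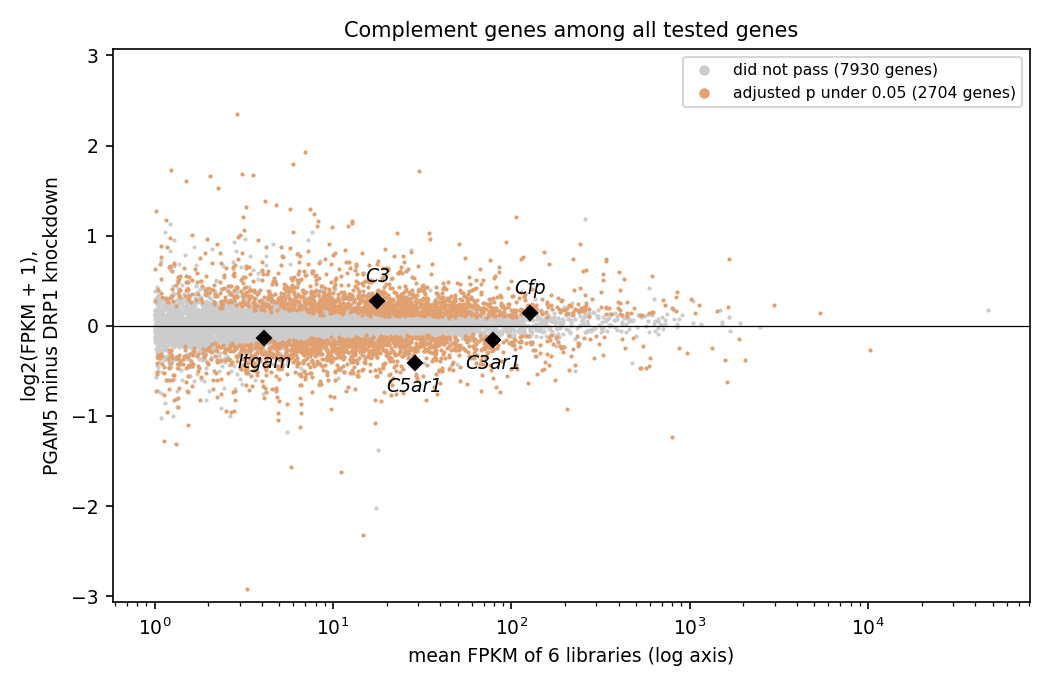
Difference in log2(FPKM + 1), PGAM5 knockdown minus DRP1 knockdown, against mean FPKM over 6 libraries on a log axis for all 10634 tested genes, with the 2704 genes that passed in orange. Black diamonds are the 5 tested complement genes, which lie between -0.41 and 0.28 while all tested genes span -2.92 to 2.35.

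Of the 30 tested protein-coding genes near the complement genes 7 passed, or 23.3%, near the 25.4% of all tested genes. Within 100 kb of C3, 1 of 4 tested protein-coding genes passed, Trip10 (log2 difference 0.27, limma adjusted p = 0.0078). Near C3ar1, the lectin receptor gene Clec4a3 was lower in PGAM5-depleted cells (-0.69) and both Clec4a1 (0.47) and the glucose transporter gene Slc2a3 (0.20) were higher, of 5 tested. Near C5ar1, Bbc3, the apoptosis gene PUMA, was higher (0.14), of 6 tested. Near Cfp, Timp1, a metalloproteinase inhibitor gene, was higher at 2.76 FPKM in PGAM5-depleted cells against 0.236 in DRP1-depleted cells (log2 difference 1.61, limma adjusted p = 1.15e-04), of 5 tested. Near Itgam, Cox6a2 was lower (-0.19), of 2 tested. Around Cfb none of 7 tested genes passed, and the 1 tested gene near the C1q genes, Zbtb40, did not pass. The unadjusted limma p was under 0.05 for 1 of the 7 near Cfb, Ehmt2 (named after its value was seen), and 0 of the 7 passed with voom; for Zbtb40 it was 0.172.

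Over the 6 libraries, the closest profiles to each complement gene were found by the root mean square distance between centred log2(FPKM + 1) values among 6727 tested genes with a mean of at least 5 FPKM. Closest to C3 were Gpt2 (distance 0.019), Igf2bp2 (0.021) and the pseudogene Impdh2-ps (0.022). Closest to C5ar1 were mt-Co1 (0.024), Ube2q1 (0.026) and Senp3 (0.026), and closest to C3ar1 were Zfp143 (0.013), Cers6 (0.016) and Srek1 (0.017). Cfp lay closest to Aig1 (0.012), Rab40c (0.017) and Ikbke (0.018), and Itgam to Emc7 (0.025), Cox6a2 (0.029) and Acaa1a (0.031). No complement gene was among the closest 3 of another, but those under 5 FPKM, Itgam among them, could not be returned by the search. Distances are small for genes with small differences, and the order describes these libraries only.

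**Figure D5:**
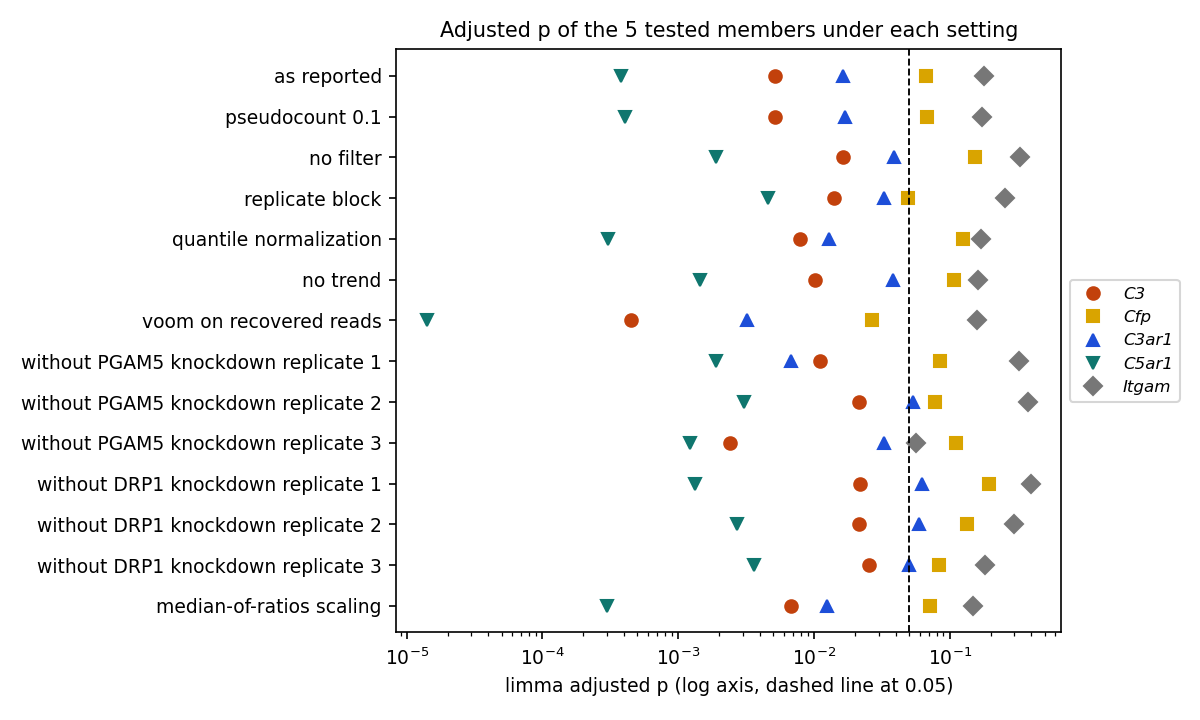
Limma adjusted p of the 5 tested complement genes (log axis) as reported and under 13 alternatives, with the threshold of 0.05 dashed. C5ar1 and C3 stay left of the line in all rows, C3ar1 crosses it when PGAM5 knockdown library 2 or any DRP1 knockdown library is left out, Cfp crosses to the left under 2 alternatives, and Itgam stays to the right.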

How the data were processed

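RNA was poly-A selected. The labels' protocol describes both strand-keeping and other library chemistry, so whether counting used strand is unknown. Per the submitters' processing notes, the authors used HISAT2 2.0.5 and featureCounts 1.5.0-p3 with mm10, and the deposited values are FPKM per gene. The sources used here give neither the annotation release nor the FPKM formula. GENCODE M21 gave symbols, coordinates and exonic lengths for 54409 of 54532 identifiers, and 123 had none. Reads and depths were recovered from FPKM and exonic length: in each library 96.1% of values above 0 gave whole reads to within 0.02.

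Groups followed the titles. Genes with a mean of at least 1 FPKM (10634) entered limma 3.58.1 (R 4.3.3) as log2(FPKM + 1) (empirical Bayes with a trend, two-sided, Benjamini-Hochberg over all tested genes, threshold 0.05). The log2 scale understates changes of low genes, and folds are ratios of mean FPKM. Detection limits are 3 reads and cover counting error only. The steps were tested on simulated data. Transcripts were compared with blastn 2.17.0 to find near-identical genes. The genes and lists were chosen with earlier results of these data known. The named genes are all 9, of the other complement genes those that passed and the 3 most abundant others per role (1 of them is not reported here), the tested neighbours that passed and the 3 closest profiles. Itgax, C5ar2, the motifs, ratios and housekeeping genes were chosen after values were seen. Alternatives changed the pseudocount, filter, trend, scaling and test, added a replicate block or left out a library.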

Additional observations from a re-analysis of the deposited data

How the results depend on the processing

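None of 267 values computed under alternatives was reversed, and 246 kept their side of the threshold or stayed within 1.5 times the count. C3 (0.24 to 0.32) and C5ar1 (-0.44 to -0.38) passed under all 13 alternatives. The C3ar1 difference was -0.20 to -0.14 with each library left out in turn, and it did not pass in 4 of those 6 fits, so 1 to 2 of the genes were called lower. Cfp (0.14 in both) passed with the replicate block (adjusted p = 0.0495) and with voom, so 2 were called higher there. The other pathway genes called lower were 2 to 4 over the fits with a library left out, the 4 without PGAM5 knockdown library 3. Over all genes, 971 to 1458 were called higher and 825 to 1280 lower with a library left out, against 1464 and 1240. Libraries of the same number shared no deviation (correlations 0.021, 0.031 and 0.000), so the numbers were not taken as pairs; the replicate block gave 1161 higher and 972 lower over all genes. Median-of-ratios scaling was chosen after seeing the data. It shifted the median of all genes by less than 0.1, and it and the other scalings changed no call among the 5 genes. Depth limits Cfb and the C1q genes to 3 reads, and shared exons limit Itgam and Cfb.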
